A study of Mus musculus with 20 samples.

Results

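The genes described here make the building blocks of DNA and RNA and the one-carbon units that go into them. They were taken from a list of 33 genes written by function, and each was found by its symbol in the array annotation, with the probe set of highest mean used where a gene had several. Of the 33, 31 had a named probe set among the 19505 genes measured. Pfas, an enzyme of the purine ring pathway, and Impdh2, 1 of 2 forms of the enzyme that opens the guanine branch, had none and were not analysed here.

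The RNA was from sorted CD4+CD25+ Tregs, the regulatory T cells that hold immune reactions in check, of C57BL/6 background and was read on 20 Clariom S arrays. In the Rheb experiment, wild-type (WT) Tregs and Tregs lacking both Rheb1 and Rheb2 (Rheb KO, from the genotype label Rheb1/2 KO) were measured unstimulated and stimulated, with 3 arrays in each of the 4 groups. A further 8 arrays, called the Rag experiment here, hold WT Tregs and Tregs without RagA and RagB (Rag KO, labelled RagAB KO), unstimulated or stimulated for 8 h, with 2 arrays in each group. What the cells were stimulated with, for how long in the Rheb experiment, how the deletions were driven and how old the mice were is not given in the sources used. The comparisons ask whether the small GTPases Rheb and Rag, which switch on the kinase complex mTORC1, affect expression in resting and in stimulated Tregs.

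A T cell that begins to grow and divide has to enlarge its pools of nucleotides. Serine hydroxymethyltransferases move a carbon from serine onto folate, and this carbon is used to build the purine ring and to turn dUMP into dTMP. Phosphoribosyl pyrophosphate (PRPP) supplies the sugar phosphate for purines and pyrimidines, ribonucleotide reductase makes the deoxy forms for DNA, and salvage enzymes recycle free bases and nucleosides. mTORC1 is known to promote purine and one-carbon synthesis through the transcription factor ATF4 and pyrimidine synthesis through CAD.

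Few of these genes changed by enough to pass the test, and those that did were 3 genes that rose on stimulation: Shmt1, Shmt2 and Prps1. In the Rheb experiment, stimulation of WT Tregs raised 3 of the 31 members and lowered none, beside 4.49% of all genes called higher and 4.89% called lower. A gene was called when its adjusted p (limma, Benjamini-Hochberg over all 19505 genes) was below 0.05. In Rheb KO Tregs 1 member rose, Shmt2, against 4.55% of all genes called higher. In the Rag experiment 1 member rose in WT Tregs, Shmt1, against 0.477% of all genes, and 1 rose in Rag KO Tregs, Prps1, against 1.2% of all genes. By limma no member was called in any comparison of a knockout with WT, in either interaction of genotype with stimulation, or in any difference between the experiments, where between 0 and 11 members had an unadjusted p below 0.05.

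The Rag arrays were less even than the Rheb arrays. The median log2 signal of an array ranged from 7.67 to 7.77 for Rheb and from 7.18 to 7.55 for Rag, with WT unstimulated 2 (7.18) and KO unstimulated 1 (7.29) below the rest. The median spread between arrays of a group, as an SD over members, was 0.165 in the Rheb and 0.351 in the Rag experiment, beside 0.160 and 0.245 over all genes. Rheb was lower in Rheb KO (log2 change -0.88 ± 0.17, SE, unstimulated and -0.93 ± 0.17 stimulated) and Rraga in Rag KO (-2.43 ± 0.25 and -2.18 ± 0.25), each with an adjusted p below 0.05. Rhebl1, the gene of Rheb2, lay below the median of the negative control probe sets on all Rheb experiment arrays, so its probe set checks little; it was not called in Rheb KO (-0.38 ± 0.19, adjusted p = 0.521, unstimulated and -0.76 ± 0.19, adjusted p = 0.119, stimulated). Rragb was not called in Rag KO (-0.08 ± 0.30 and -0.22 ± 0.30). Of 11 listed T cell and Treg markers 9 were measured and 8 exceeded the negative control median on all 20 arrays. Foxp3 was not analysed here. For the 3 unstimulated KO and 3 stimulated WT arrays of the Rheb experiment the treatment label contradicts the titles, and groups follow the titles, which match the stated design. In such bulk RNA, fewer cells of a type and less RNA per cell cannot be told apart.

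The promoters of the 3 called genes are shown because these members were called in the most comparisons, 2 each. Shared control of these genes was not tested. Each line gives the 250 bases before the RefSeq start site (GRCm38.p6), read 5′ to 3′ on the gene's own strand. Capitals mark matches to the motifs searched for. The windows are chr11:60811266-60811515 on the minus strand for Shmt1, chr10:127522445-127522694 on the minus strand for Shmt2 and chrX:140456353-140456602 on the plus strand for Prps1.
Shmt1: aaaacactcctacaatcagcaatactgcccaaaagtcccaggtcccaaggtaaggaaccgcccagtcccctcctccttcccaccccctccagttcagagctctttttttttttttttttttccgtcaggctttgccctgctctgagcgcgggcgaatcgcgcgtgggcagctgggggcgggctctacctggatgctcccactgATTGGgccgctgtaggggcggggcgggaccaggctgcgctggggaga
Shmt2: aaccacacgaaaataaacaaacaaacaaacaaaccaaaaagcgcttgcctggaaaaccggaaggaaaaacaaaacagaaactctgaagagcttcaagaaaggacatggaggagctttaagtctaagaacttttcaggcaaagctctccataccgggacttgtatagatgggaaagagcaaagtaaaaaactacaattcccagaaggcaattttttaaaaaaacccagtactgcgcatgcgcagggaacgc
Prps1: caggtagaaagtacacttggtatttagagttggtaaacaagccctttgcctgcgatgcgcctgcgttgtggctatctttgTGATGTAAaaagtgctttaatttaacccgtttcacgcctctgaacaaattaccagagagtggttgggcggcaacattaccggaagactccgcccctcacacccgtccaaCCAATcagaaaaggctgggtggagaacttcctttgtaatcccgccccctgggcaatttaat
The searches covered the E-box CACGTG, the C/EBP-ATF composite element TGATGNAA, 3 E2F forms (TTTGGCGC, TTTCGCGC and TTTCCCGC) and CCAAT, on both strands. They were run on windows of 250 bases before and 50 after each start, of which 35 belonged to 29 of the 33 members. Prps1 held the composite element as TGATGTAA at 170 to 163 bases before its start, and it was the only member with a match, 1 of 35 windows (2.86%) beside 3.97% of all 32851 windows. CCAAT stood 61 to 57 bases before the start of Prps1 and, on the opposite strand as ATTGG, 47 to 43 bases before that of Shmt1. It was present in 15 of 35 member windows (42.9%) and in 37.4% of all windows. The Shmt2 window held none of these letters. The E-box was found in 7 of 35 member windows (20%) and in 7.15% of all windows. Its members were Atic, Dtymk, Impdh2, Nme1, Paics and Tyms. The E2F forms were found in 2 of 35 (Ppat and Prps2; 5.71%) and in 1.84% of all windows. The median share of G and C was 59.2% in member windows and 52.4% in all windows, and the shares of motifs were not adjusted for it. These are matches of letters, with no binding measured.

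In the one-carbon group, Shmt1, the cytosolic serine hydroxymethyltransferase, had the largest called rise among members in WT Tregs of each experiment. In the Rheb experiment its log2 signal was 9.76, 9.23 and 9.30 in unstimulated WT and 10.18, 10.32 and 10.23 in stimulated WT. All stimulated arrays stood above all unstimulated ones, and the rise was 0.81 ± 0.13 (log2 change, SE, n = 3 against 3; adjusted p = 0.00165). Rheb KO arrays read 9.45, 9.38 and 9.69 unstimulated and 9.80, 9.91 and 9.92 stimulated. Here too the groups did not overlap, but the difference of 0.37 ± 0.13 did not pass the test (adjusted p = 0.114). The stimulated KO arrays were all below the stimulated WT arrays (-0.37 ± 0.13; adjusted p = 0.378), and the difference between the responses was -0.44 ± 0.19 (adjusted p = 0.788).

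Rag experiment arrays of Shmt1 read 9.22 and 8.64 in unstimulated WT and 10.38 and 10.65 in stimulated WT, a rise of 1.58 ± 0.30 (n = 2 against 2; adjusted p = 0.0241). Rag KO arrays read 8.82 and 9.60 unstimulated and 9.90 and 10.25 stimulated, a difference of 0.86 ± 0.30 that did not pass (adjusted p = 0.187). Neither pair of groups overlapped, which is common by chance with 2 against 2 arrays, here and in the Rag comparisons below. The share of all genes without overlap was not computed. The call in WT was lost without WT unstimulated 2 or either stimulated WT array, with adjusted p reaching 0.282. Without WT unstimulated 2 and KO unstimulated 1 together, the arrays of lowest median, the rise was 1.29 (adjusted p = 0.00895). That fit leaves 1 array in each unstimulated group of the Rag experiment, which is assumed to vary like the arrays of the other groups.

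Shmt2, the mitochondrial serine hydroxymethyltransferase, rose in both genotypes of the Rheb experiment. It read 11.04, 11.01 and 10.99 in unstimulated and 11.71, 11.44 and 11.53 in stimulated WT Tregs, a rise of 0.54 ± 0.10 (adjusted p = 0.00366). In Rheb KO it read 10.80, 10.77 and 11.01 unstimulated and 11.40, 11.36 and 11.25 stimulated, a rise of 0.48 ± 0.10 (adjusted p = 0.00735). The groups did not overlap in either genotype, and the responses differed by -0.06 ± 0.14 (adjusted p = 0.986). With all 20 arrays in 1 fit, which estimates 1 spread from both experiments, neither Shmt2 rise passed (adjusted p = 0.358 in WT and 0.464 in KO).

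For the Rag experiment, Shmt2 read 11.68 and 10.06 in unstimulated WT and 12.63 and 12.47 in stimulated WT. The Rag KO arrays read 10.65 and 11.38 unstimulated and 11.79 and 12.33 stimulated. Stimulated arrays were again higher, but the 2 unstimulated WT arrays lay far apart, with the lower value on the array of lowest median. The differences of 1.68 ± 0.42 in WT and 1.05 ± 0.42 in KO had adjusted p of 0.0873 and 0.260. Shmt2 had the widest spread of the 31 members in the Rag experiment (SD 0.657), and without the arrays of lowest median, on 1 unstimulated WT array, its WT difference was 0.88 (adjusted p = 0.0957).

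Mthfd2, the mitochondrial methylenetetrahydrofolate dehydrogenase of growing cells, passed no test and is given because it was fixed for description. In the Rheb experiment it read 9.16, 9.56 and 9.54 in unstimulated WT and 9.05, 8.88 and 9.15 in unstimulated KO, then 9.70, 9.38 and 9.36 in stimulated WT and 9.44, 9.35 and 9.36 in stimulated KO. The unstimulated KO arrays were all below WT (-0.39 ± 0.13; adjusted p = 0.294), and the stimulated ones overlapped (-0.10 ± 0.13; adjusted p = 0.917). Its Rag experiment values were 9.31 and 8.74 in unstimulated WT, 8.20 and 8.34 in unstimulated KO, 9.48 and 9.68 in stimulated WT and 8.65 and 8.94 in stimulated KO. Rag KO arrays were below WT in both states, by -0.76 ± 0.26 (adjusted p = 0.624) and -0.79 ± 0.26 (adjusted p = 0.584). The smallest adjusted p of any member in the stimulated Rag KO comparison was that of Mthfd2.

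The other one-carbon members were not called. Mthfd1, the cytosolic enzyme that interconverts folate-bound carbon units, differed with stimulation by 0.25 ± 0.15 and -0.01 ± 0.15 in WT and KO of the Rheb experiment and by 1.09 ± 0.29 and 0.80 ± 0.29 in the Rag experiment (adjusted p from 0.107 to 0.991). Mthfd1l, its mitochondrial partner that releases formate, and Slc25a32, the mitochondrial folate carrier, differed by -0.10 to 0.28 in the Rheb and -0.07 to 0.45 in the Rag experiment. Aldh1l2, which oxidises formyl-folate in mitochondria, lay below the negative control median on all 20 arrays, so its values carry no measured level. The other 6 one-carbon members were all above 0 for stimulation in WT of the Rag experiment (0.35 to 1.68), beside 73.1% of all genes. In WT of the Rheb experiment 4 of the 6 were (-0.08 to 0.81), beside 54.7% of all genes.

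**Figure D1:**
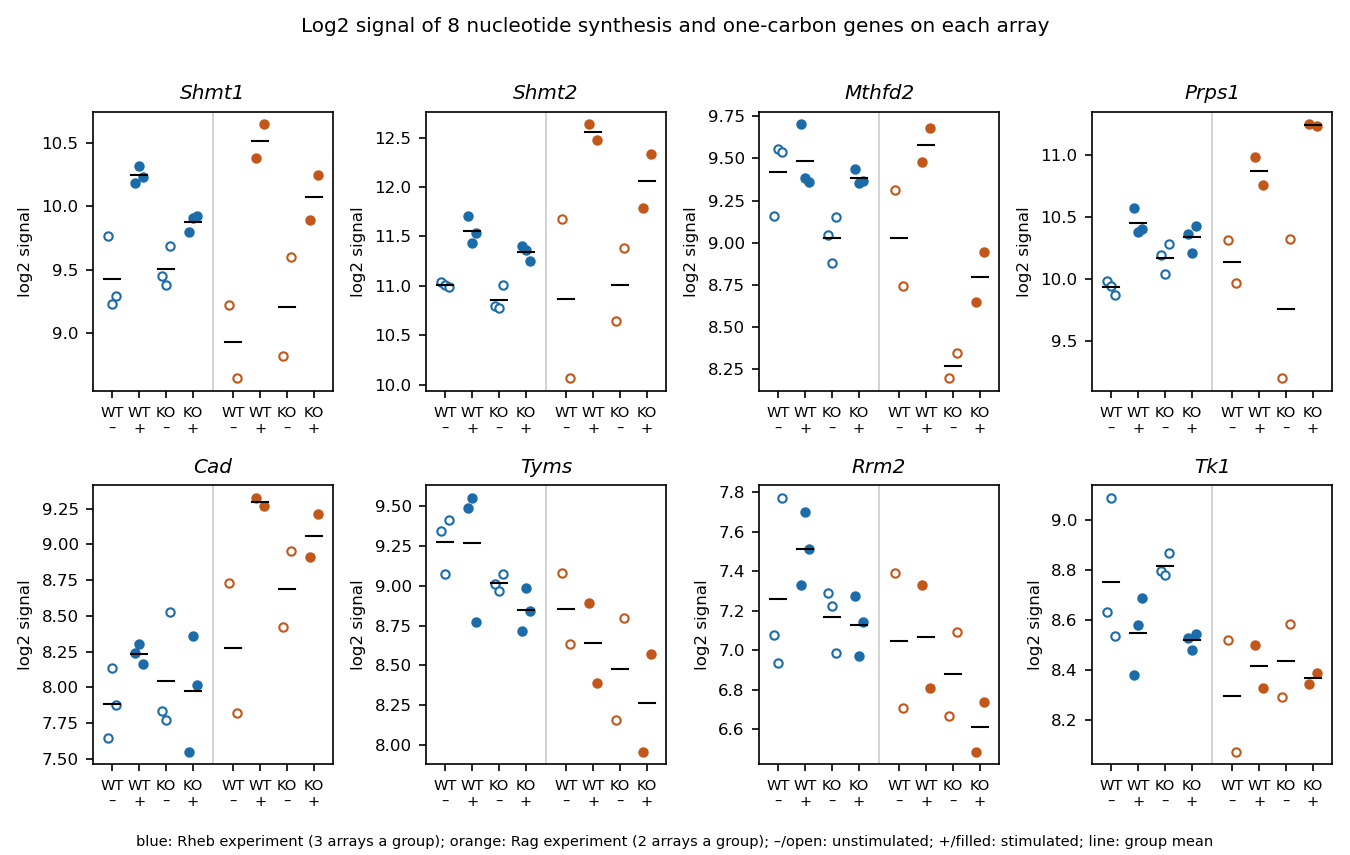
Log2 signal (vertical axis, a separate scale for each gene) of 8 members on each array of the 8 groups, with horizontal lines at group means; blue is the Rheb and orange the Rag experiment, open points are unstimulated and filled points stimulated. Shmt1 and Shmt2 lie higher on all stimulated than on all unstimulated arrays of the same genotype and experiment, while Tyms, Rrm2 and Tk1 overlap between unstimulated and stimulated WT.

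Prps1 and Prps2 encode PRPP synthetases. With stimulation their differences had opposite signs in WT and KO of both experiments, though Prps2 was never called. In Rheb KO against WT both were above 0 unstimulated and below 0 stimulated. Whether these genes differ from each other was not tested. Prps1 read 9.99, 9.95 and 9.88 in unstimulated and 10.58, 10.39 and 10.41 in stimulated WT Tregs of the Rheb experiment, with no overlap and a rise of 0.52 ± 0.10 (adjusted p = 0.00528). Rheb KO arrays read 10.19, 10.04 and 10.29 unstimulated and 10.37, 10.22 and 10.43 stimulated, overlapping groups with a difference of 0.16 ± 0.10 (adjusted p = 0.410). The unstimulated KO arrays were already above the unstimulated WT arrays (0.24 ± 0.10; adjusted p = 0.447), and the responses differed by -0.35 ± 0.14 (adjusted p = 0.773). The WT rise did not pass with all 20 arrays in 1 fit (adjusted p = 0.168).

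Prps1 in the Rag experiment read 10.31 and 9.97 in unstimulated and 10.99 and 10.76 in stimulated WT, a difference of 0.73 ± 0.32 (adjusted p = 0.315). Rag KO arrays read 9.20 and 10.33 unstimulated and 11.25 and 11.24 stimulated, a rise of 1.48 ± 0.32 (adjusted p = 0.0415). The lower unstimulated KO value belongs to the array of low median, KO unstimulated 1, and without both arrays of lowest median, on 1 unstimulated KO array, the difference was 0.92 (adjusted p = 0.073). The call was also lost when only the compared groups were fitted (adjusted p = 0.181), and on leaving out any single array except KO unstimulated 2. Prps2 differed with stimulation by -0.14 ± 0.14, -0.31 ± 0.14, -0.47 ± 0.24 and -0.43 ± 0.24 in WT and KO of the Rheb and of the Rag experiment, none called.

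Among the pyrimidine synthesis genes none was called. Cad, whose protein carries out the opening steps of the pathway and is a target of mTORC1 signalling, read 7.64, 8.14 and 7.88 in unstimulated WT of the Rheb experiment and 8.24, 8.30 and 8.16 in stimulated WT. Its Rheb KO arrays read 7.84, 7.77 and 8.53 unstimulated and 7.55, 8.36 and 8.02 stimulated. The WT arrays did not overlap between the states (0.35 ± 0.22; adjusted p = 0.416) and the KO arrays did (-0.07 ± 0.22; adjusted p = 0.924).

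Rag experiment arrays of Cad read 8.73 and 7.82 in unstimulated WT, 9.33 and 9.27 in stimulated WT, 8.42 and 8.95 in unstimulated KO and 8.91 and 9.21 in stimulated KO. The WT difference was 1.02 ± 0.31 (adjusted p = 0.15) and that in KO, where the states overlapped, 0.37 ± 0.31 (adjusted p = 0.727). Umps, which completes UMP, came closest to the threshold in this group. Its differences with stimulation were 0.18 ± 0.10 and 0.33 ± 0.10 in WT and KO of the Rheb experiment (adjusted p = 0.365 and 0.0584) and 1.23 ± 0.31 and 1.17 ± 0.31 in the Rag experiment (adjusted p = 0.0873 and 0.0878). Its Rag KO arrays were below WT, by -0.80 ± 0.31 unstimulated and -0.86 ± 0.31 stimulated (adjusted p = 0.681 and 0.741). Dhodh, the mitochondrial step between them, differed with stimulation by 0.37 ± 0.13 in WT of the Rheb experiment (adjusted p = 0.0949). Ctps2, which makes CTP, was below 0 in all 4 responses, from -0.94 ± 0.41 in WT of the Rag experiment to -0.06 ± 0.12 in Rheb KO.

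No gene of the purine ring pathway was called. Ppat, the committed step, and Paics, a later one, are neighbouring genes on opposite strands in RefSeq; Ppat differed with stimulation in the Rag experiment by 0.83 ± 0.25 in WT and 0.56 ± 0.25 in KO, and Paics by 0.45 ± 0.25 and 0.14 ± 0.25. The 5 measured genes, with Gart, Adsl and Atic, were all above 0 in stimulated WT of the Rag experiment (0.37 to 0.83). In the Rheb experiment 3 of 5 were (-0.09 to 0.38). Of all genes, 73.1% were above 0 in that Rag comparison and 54.7% in that Rheb comparison.

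Atic, which closes the ring, and Impdh1, which opens the guanine branch, had responses of opposite sign in the genotypes of the Rheb experiment. Impdh1 read 7.23, 7.34 and 7.68 in unstimulated and 7.70, 7.98 and 7.72 in stimulated WT, and 7.67, 7.75 and 7.81 in unstimulated and 7.27, 7.44 and 7.40 in stimulated KO; its arrays were singled out after their values were seen. The states overlapped in neither genotype. The differences were 0.38 ± 0.12 in WT and -0.38 ± 0.12 in KO (adjusted p = 0.0735 and 0.0788). Their difference, -0.76 ± 0.17, had the smallest unadjusted p of the members in that interaction (0.000779), and an adjusted p of 0.449. For Atic the interaction was -0.65 ± 0.20 (adjusted p = 0.680). Impdh1 did not show opposite signs in the Rag experiment, with 1.11 ± 0.31 in WT and 0.66 ± 0.31 in KO (adjusted p = 0.124 and 0.35), and Atic did, with 0.37 ± 0.25 and -0.10 ± 0.25 (adjusted p = 0.462 and 0.968). Gmps, which makes GMP, differed by -0.07 ± 0.20 and -0.49 ± 0.20 in WT and KO of the Rheb experiment (adjusted p = 0.907 and 0.162).

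The 5 salvage genes had no call. Tk1, the thymidine kinase of dividing cells, read 8.63, 9.09 and 8.54 in unstimulated WT, 8.38, 8.58 and 8.69 in stimulated WT, 8.80, 8.78 and 8.87 in unstimulated KO and 8.53, 8.48 and 8.55 in stimulated KO of the Rheb experiment. Its Rag experiment arrays read 8.52 and 8.07 in unstimulated WT, 8.50 and 8.33 in stimulated WT, 8.29 and 8.58 in unstimulated KO and 8.35 and 8.39 in stimulated KO. The states overlapped in 3 of these 4 settings, and in Rheb KO, where they did not, the difference was -0.30 ± 0.13 (adjusted p = 0.218). Adk, the adenosine kinase, differed with stimulation by 1.27 ± 0.33 in Rag KO (adjusted p = 0.0838) and Hprt, which salvages hypoxanthine and guanine, by 0.93 ± 0.30 (adjusted p = 0.147). Hprt was also lower in unstimulated Rag KO than in WT, by -0.91 ± 0.30 (adjusted p = 0.594), the largest knockout difference of any member in the Rag experiment. Uck2, which phosphorylates uridine and cytidine, and Dck, the deoxycytidine kinase, differed with stimulation by -0.05 to 0.27 in the Rheb experiment and -0.08 to 0.85 in the Rag experiment.

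The genes for deoxynucleotides were not called either. Tyms, which makes dTMP with a folate-bound carbon, read 9.34, 9.08 and 9.41 in unstimulated WT, 9.01, 8.97 and 9.07 in unstimulated KO, 9.48, 9.55 and 8.78 in stimulated WT and 8.72, 8.98 and 8.84 in stimulated KO of the Rheb experiment. The KO arrays lay below WT when unstimulated (-0.26 ± 0.17; adjusted p = 0.678) and overlapped with WT when stimulated (-0.42 ± 0.17; adjusted p = 0.459). Tyms in the Rag experiment read 9.08 and 8.63 in unstimulated WT, 8.16 and 8.80 in unstimulated KO, 8.89 and 8.39 in stimulated WT and 7.96 and 8.57 in stimulated KO, with overlap in both states.

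Rrm2, the small subunit of ribonucleotide reductase, read 7.07, 6.93 and 7.77 in unstimulated WT, 7.33, 7.70 and 7.51 in stimulated WT, 7.29, 7.22 and 6.99 in unstimulated KO and 7.27, 6.97 and 7.14 in stimulated KO. Rag experiment arrays read 7.39 and 6.71 in unstimulated WT, 7.33 and 6.81 in stimulated WT, 6.67 and 7.09 in unstimulated KO and 6.49 and 6.74 in stimulated KO. These signals were close to background: on 4 of the 20 arrays Rrm2 was not above the negative control median. Rrm1, the large subunit, had the largest knockout difference of any member in the Rheb experiment, -0.60 ± 0.16 in unstimulated cells (adjusted p = 0.159), and -0.40 ± 0.16 in stimulated ones (adjusted p = 0.451). Dtymk, the thymidylate kinase, differed with stimulation by 0.16 ± 0.12 and 0.05 ± 0.12 in WT and KO of the Rheb experiment and by 0.53 ± 0.24 and 0.24 ± 0.24 in the Rag experiment.

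Nme1 and Nme2 are neighbouring genes for nucleoside diphosphate kinases. Like Shmt2 and Uck2, they had a signal over the 95th percentile of negative control probe sets on each of the 20 arrays. Shmt1 passed that level on 6 arrays, Prps1 on 17 and Mthfd2 on 1. That level was passed on 0 arrays by Mthfd1l, Slc25a32, Aldh1l2, Cad, Prps2, Paics, Adsl, Atic, Impdh1, Gmps, Adk, Dck, Tk1, Rrm1, Rrm2 and Tyms. Of these, all but Aldh1l2 and Rrm2 exceeded the negative control median on all 20 arrays. Nme1 was lower in Rheb KO, by -0.32 ± 0.09 unstimulated and -0.29 ± 0.09 stimulated, without passing the test (adjusted p = 0.203 and 0.296). Nme2 differed by -0.05 ± 0.09 and 0.04 ± 0.09. These genes are close paralogs, and sharing of signal between their probe sets was not tested.

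**Figure D2:**
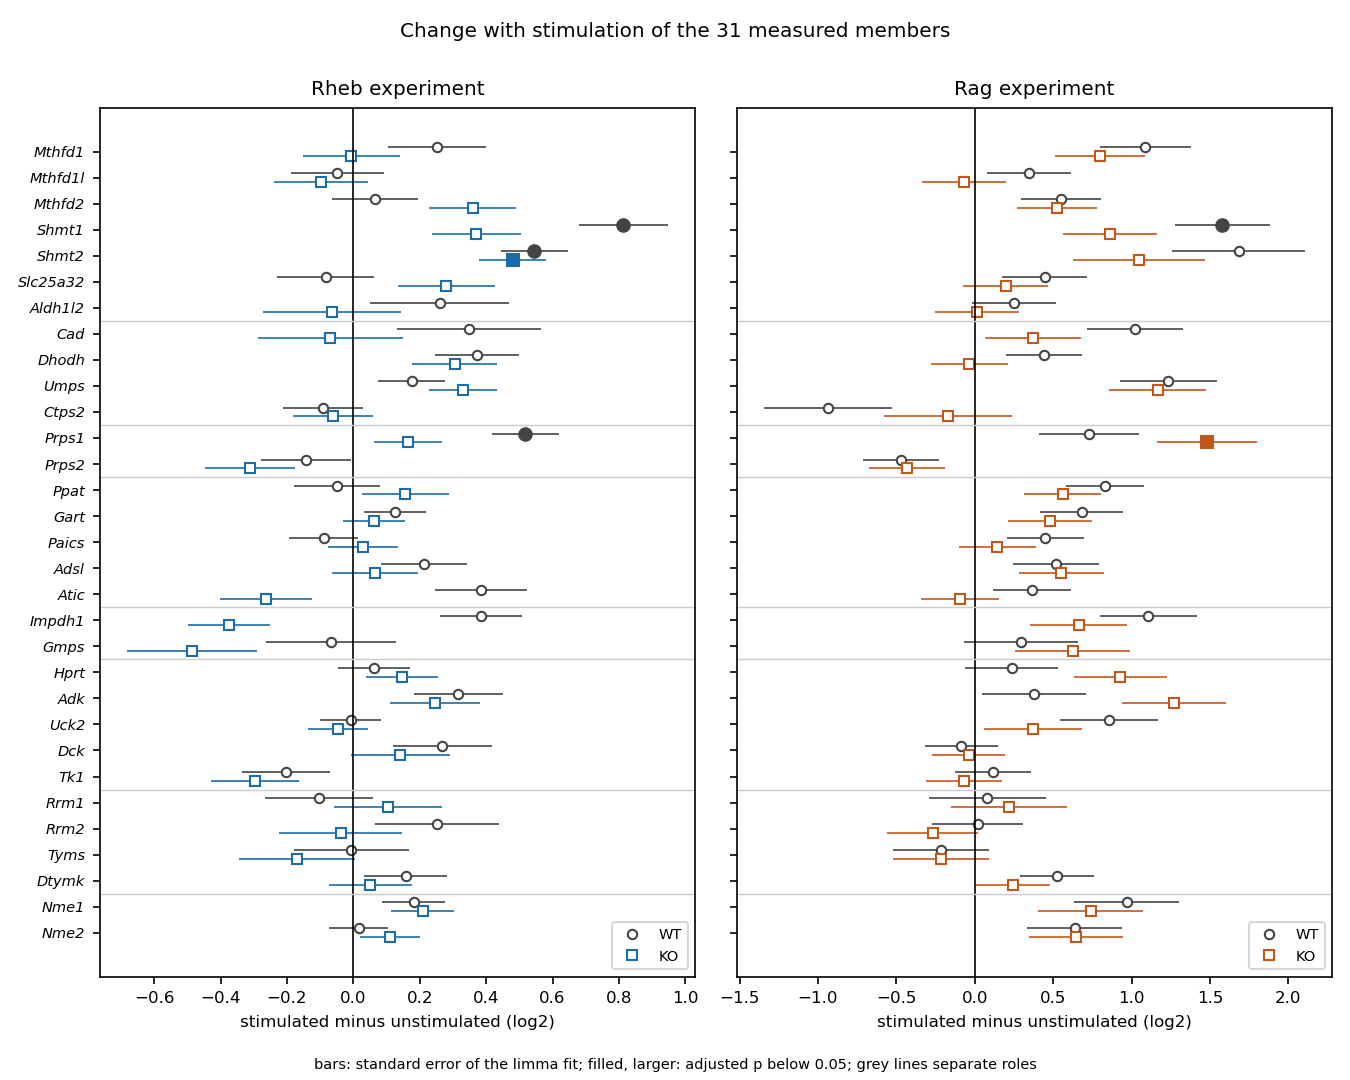
Log2 change with stimulation (horizontal axis, stimulated minus unstimulated, with the SE of the limma fit as bars) of the 31 measured members, ordered by role, in WT and KO of the Rheb experiment (left, 3 arrays a group) and the Rag experiment (right, 2 arrays a group, on a wider scale). Filled symbols passed the test: Shmt1, Shmt2 and Prps1 in WT and Shmt2 in KO on the left, and Shmt1 in WT and Prps1 in KO on the right.

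Seen as a group, the median response of the 31 members to stimulation was 0.16 (log2) in WT and 0.06 in KO of the Rheb experiment, with 20 and 18 members above 0, beside medians of 0.02 and -0.01 over all genes. The Rag medians were 0.45 in WT and 0.37 in KO, with 27 and 22 of 31 members above 0, beside 0.21 and 0.09 over all genes. Of all genes, 73.1% and 61.9% were above 0 in WT and KO of the Rag experiment. In the Rheb experiment these shares were 54.7% and 47.3%. After a second quantile normalization the Rag medians were 0.04 and -0.03 over all genes and 0.33 and 0.10 over members. Without the arrays of lowest median, the Rag member medians were 0.35 in WT and 0.13 in KO. Leaving out single arrays gave member medians from 0.35 to 0.63 in Rag WT and from 0.13 (without KO unstimulated 1) to 0.64 (without KO unstimulated 2) in Rag KO, where it was 0.24 without KO stimulated 2. In the Rheb experiment the WT median was 0.10 without WT stimulated 1, and the KO median ranged from 0.023 (without KO unstimulated 1) to 0.11 (without KO unstimulated 3), with 0.036 and 0.040 without KO unstimulated 2 and KO stimulated 2.

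Markers of other cells moved with stimulation in the Rheb experiment. Members were called higher with stimulation in both experiments, Shmt1, Shmt2 and Prps1 in the Rheb and Shmt1 and Prps1 in the Rag experiment. Of 10 measured macrophage markers, 6 fell in WT and 6 in KO, beside 4.89% and 5.19% of all genes. Their mean log2 signal was 7.37 to 7.38 in unstimulated WT, 7.72 to 7.80 in unstimulated KO, 6.79 to 7.07 in stimulated WT and 6.82 to 6.87 in stimulated KO. With stimulation in the Rag experiment 0 of the 10 were called (limma), and 1 in WT and 0 in KO had an unadjusted p below 0.05. None of the 10 lay under the negative control median on all arrays, and 2 lay above it on all arrays. Of 11 dendritic cell markers 5 fell in WT and 5 in KO of the Rheb experiment, and of 9 NK cell markers 3 and 2. In the Rag experiment none of either list was called in WT, and 1 dendritic cell marker fell in KO. Clec9a of the dendritic and Klrb1c and Klre1 of the NK cell markers lay below the negative control median on all arrays. Above it on all arrays were 5 dendritic and 1 NK cell marker. Of 9 T cell and Treg markers 2 rose and 2 fell in WT of the Rheb experiment, and 4 rose and 3 fell in KO. In the Rag experiment 0 of these 9 were called in WT, and 2 rose in KO. The part of these lists in the rises of Shmt1, Shmt2 and Prps1 was not tested.

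Knockout of Rheb was followed by small, mostly negative differences, none of which passed the test. In unstimulated Tregs 0 of 31 members were called, beside 0.508% of all genes, and 8 members had an unadjusted p below 0.05, of which 3 were higher and 5 lower (25.8%, beside 10.2% of all genes). The median difference was -0.07, with 11 of 31 above 0 (35.5%, beside 54.1% of all genes). That median was -0.031 without WT unstimulated 1 and -0.12 without WT unstimulated 2. In stimulated Tregs 0 of 31 were called, beside 0.543% of all genes, and 11 had an unadjusted p below 0.05, all lower (35.5%, beside 9.25%). The median was -0.12, while the median over all genes was -0.01. Above 0 were 4 of 31 members (Paics, Slc25a32, Nme2 and Dhodh, named after their values were seen). This was 12.9% of members, beside 47.3% of all genes. In that comparison Shmt1, Atic, Impdh1, Gmps, Rrm1, Tyms, Dck, Adk, Mthfd1, Shmt2 and Nme1 were the 11, with differences from -0.43 to -0.22.

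Median differences were larger in size in Rag KO than in Rheb KO, with larger errors. No member was called when the Rag effect was compared directly with the Rheb effect. In unstimulated Tregs 0 of 31 members were called, beside 0.113% of all genes, and Mthfd2, Umps and Hprt were the 3 with an unadjusted p below 0.05 (9.68%, beside 6.66% of all genes). The median was -0.19, beside a median of 0.03 over all genes, with 10 of 31 members above 0 (32.3%, beside 54.3% of all genes). Its sign turned with a single array: it was 0.11 without KO unstimulated 1, -0.012 without WT unstimulated 1, -0.38 without KO unstimulated 2 and -0.43 without WT unstimulated 2. Without both arrays of lowest median it was -0.08. In stimulated Tregs 0 of 31 were called, beside 0.103% of all genes, and 5 had an unadjusted p below 0.05, all lower (Mthfd1, Mthfd2, Umps, Ppat and Nme1; 16.1%, beside 5.07%). The median was -0.37, beside -0.05 over all genes, with 5 of 31 members above 0 (16.1%, beside 41.5% of all genes). It ranged from -0.50 to -0.16 over single arrays left out, with the value nearest 0 without KO stimulated 1.

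Genes listed as markers of other cells differed along with Rag KO. Whether the sorted Tregs expressed these genes themselves, Ccr9 among them, was not tested. Of 11 dendritic cell markers 10 were above 0 in unstimulated Rag KO, with Ccr9 called and 4 at an unadjusted p below 0.05, and their mean log2 signal was 7.50 to 7.63 beside 6.65 to 7.09 in WT. In stimulated cells it was 7.23 to 7.49 beside 6.98 to 7.05, with 6 of 11 above 0, none called and 3 at an unadjusted p below 0.05. Of 9 NK cell markers 7 were above 0 in unstimulated and 8 in stimulated Rag KO, none called, with 4 and 1 at an unadjusted p below 0.05. Their mean was 6.63 to 7.32 beside 6.21 to 6.64 in WT when unstimulated, and 6.45 to 6.85 beside 6.17 to 6.31 when stimulated. Only 1 of these 9 lay above the negative control median on all arrays. Macrophage markers were above 0 for 9 of 10 and 6 of 10, with none at an unadjusted p below 0.05. Of 9 T cell and Treg markers 8 were below 0 in unstimulated Rag KO, with mean signals of 10.81 to 11.30 beside 11.00 to 11.66 in WT. The part of these lists in the member differences was not tested.

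**Figure D3:**
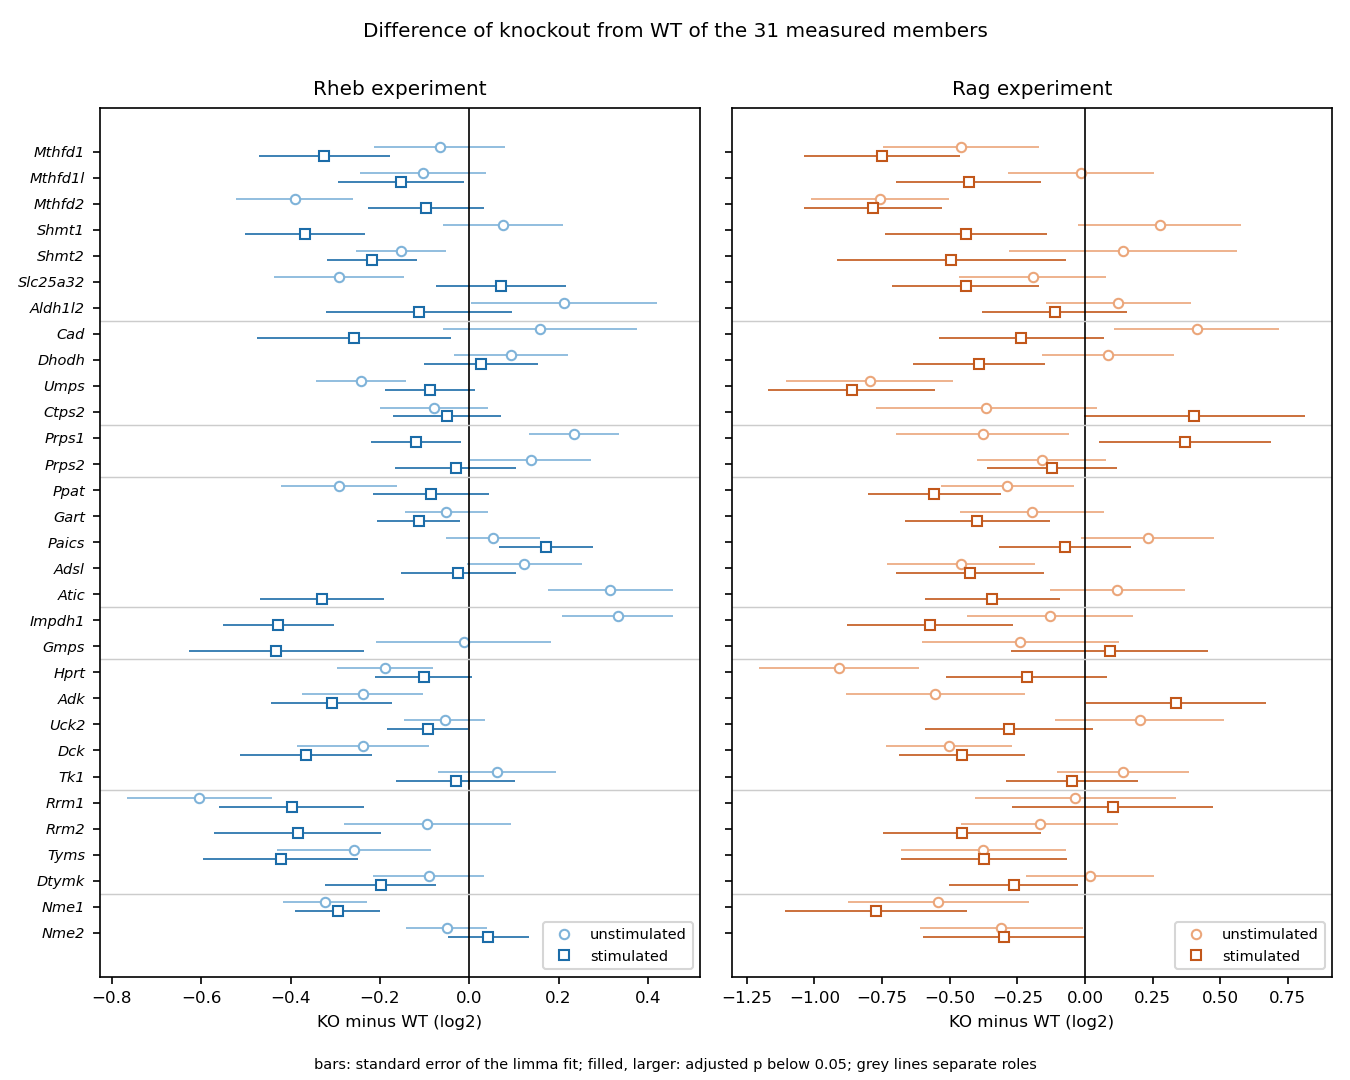
Log2 difference of knockout from WT (horizontal axis, KO minus WT, with the SE of the limma fit as bars) of the 31 measured members, ordered by role, in unstimulated (circles) and stimulated (squares) Tregs of the Rheb experiment (left) and the Rag experiment (right, on a wider scale). No point passed the test, and 27 of 31 stimulated Rheb differences and 26 of 31 stimulated Rag differences lie to the left of 0.

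Proliferation markers also had lower values in Rheb KO. Of 18 such markers, all 18 were below 0 in Rheb KO in both states, with 1 called in unstimulated cells (Cdk1) and 5 in stimulated ones. Their mean log2 signal was 8.90 to 9.21 in unstimulated WT, 8.63 to 8.89 in unstimulated KO, 9.19 to 9.26 in stimulated WT and 8.57 to 8.69 in stimulated KO. In Rag KO 12 of 18 were below 0 in unstimulated and 13 in stimulated cells, with a median of -0.20 in each state. There 0 of 18 were called in either state (limma), and 0 had an unadjusted p below 0.05. The Rag effect minus the Rheb effect was above 0 for 15 of 18 unstimulated and 16 of 18 stimulated. In that direct comparison limma also called 0 of 18 in either state, and 0 had an unadjusted p below 0.05. All 10 macrophage markers were above 0 in unstimulated Rheb KO, 2 of them called, and 3 of 10 in stimulated Rheb KO, where limma called 0 and 0 had an unadjusted p below 0.05. Dendritic cell markers were above 0 for 9 of 11 in each state, with 2 called unstimulated (H2-Ab1 and H2-Eb1) and 1 stimulated (H2-Eb1), and means of 7.75 to 7.88 beside 7.48 to 7.61 in WT and then 7.17 to 7.26 beside 7.07 to 7.21. NK cell markers were above 0 for 8 of 9 unstimulated, with Fcgr3 called, and 9 of 9 stimulated, with none called. Their means were 7.04 to 7.29 beside 6.61 to 6.96 in WT, then 6.49 to 6.77 beside 6.24 to 6.37. The stimulated means lay below the lowest negative control median of the Rheb experiment. Of these 9, 2 lay below the negative control median on all arrays and 1 above it on all arrays, so many of these values are near background. Of 6 CD8 T cell markers Nkg7 was called higher in stimulated Rheb KO. The part of these lists in the member differences was not tested.

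The tests of whether responses differ between genotypes or experiments also called no member. In the Rheb interaction 4 of 31 members had an unadjusted p below 0.05, all lower in KO (Impdh1, Atic, Prps1 and Shmt1; 12.9%, beside 6.19% of all genes), and 0% of all genes were called. In the Rag interaction no member had one, beside 6.16% of all genes, with an adjusted p of 0.728 or more, and again 0% of all genes were called. The Rag effect minus the Rheb effect had 2 members with an unadjusted p below 0.05 in unstimulated cells (Adsl and Hprt, beside 0.0564% of all genes called) and 2 in stimulated cells (Mthfd2 and Umps, beside 0.19% called). Either pair is 6.45% of the members, a share not above the 7.31% and 7.06% of all genes at that threshold. The WT response was nominally larger in the Rag than in the Rheb experiment for 11 of 31 members at an unadjusted p below 0.05. This was 35.5% of members, beside 13.8% of all genes in either direction (2143 higher and 546 lower). With 0.323% of all genes called, Umps was nearest to a call (1.06 ± 0.29, limma adjusted p = 0.139). The median over all genes was 0.18, with 70.5% above 0, beside 0.37 and 77.4% for members. The member median was 0.21 with array medians set to 0 and 0.22 without the 2 Rag arrays of lowest median. Experiment, stimulation protocol and array run cannot be told apart in these last comparisons.

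Outside the members, 75 other genes of the pathway were measured, 17 for one-carbon metabolism, 5 for serine synthesis, 28 for synthesis and salvage and 25 for nucleotide breakdown. With stimulation in WT of the Rheb experiment 6 of 75 rose and 7 fell, beside 4.49% and 4.89% of all genes; in Rheb KO 5 rose and 8 fell, beside 4.55% and 5.19%. For the Rag experiment the counts were 1 that rose and 2 that fell in WT, beside 0.477% and 0.523% of all genes, and 1 rose and 0 fell in KO, beside 1.2% and 0.123%. The breakdown genes made up 3 of the 6 that rose and 2 of the 7 that fell in WT of the Rheb experiment, and 3 of the 5 and 4 of the 8 in Rheb KO. Of the 5 serine synthesis genes limma called 0 in all 13 comparisons, with at most 1 of 5 at an unadjusted p below 0.05.

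Upp1, the uridine phosphorylase that splits uridine into uracil and ribose phosphate, rose with stimulation in all 4 settings. It read 6.16, 6.05 and 6.60 in unstimulated and 7.09, 7.24 and 7.14 in stimulated WT of the Rheb experiment, and 6.06, 6.03 and 6.46 against 7.51, 8.12 and 7.25 in Rheb KO. Upp1 in the Rag experiment read 6.00 and 5.80 against 7.50 and 7.15 in WT and 6.86 and 6.75 against 8.16 and 8.52 in KO. The groups overlapped in none of the 4 settings. The rises were 0.89 ± 0.20, 1.44 ± 0.20, 1.43 ± 0.24 and 1.54 ± 0.24 (adjusted p = 0.0138, 0.000456, 0.0141 and 0.00796). Unstimulated Upp1 signals lay below the lowest negative control median of their experiment (6.86 for Rheb and 6.11 for Rag) in all groups but Rag KO, so those starting levels are not above background and the sizes of these 3 rises are not exact.

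Ampd3 and Ampd1, which deaminate AMP, fell with stimulation in the Rheb experiment. For Ampd3 the changes were -1.61 ± 0.16 in WT and -1.65 ± 0.16 in KO (adjusted p = 5.03e-05 and 3.07e-05), and -1.66 ± 0.31 in WT of the Rag experiment (adjusted p = 0.0231). In Rag KO the difference of -0.83 ± 0.31 was not called (adjusted p = 0.223), and the responses differed by 0.83 ± 0.44 (adjusted p = 0.728). For Ampd1 they were -1.40 ± 0.18 in WT and -0.99 ± 0.18 in KO of the Rheb experiment (adjusted p = 0.000248 and 0.00245), with stimulated signals of 5.19 to 5.70, below the negative control medians. Cmpk2, a mitochondrial kinase for UMP and CMP that is induced by interferon, changed by -1.47 ± 0.23 in WT and -2.01 ± 0.23 in KO of the Rheb experiment and by -2.03 ± 0.29 in WT of the Rag experiment (adjusted p = 0.00125, 0.000106 and 0.00767). Its stimulated Rag WT arrays read 6.26 and 5.67, under their negative control medians of 6.33 and 6.14, so the size of that fall is not exact. In Rag KO the difference of -0.73 ± 0.29 was not called (adjusted p = 0.263), and the responses differed by 1.30 ± 0.42 (adjusted p = 0.728). Slc28a2, a carrier for purine nucleosides, changed by -0.76 ± 0.10 in WT and -1.01 ± 0.10 in KO of the Rheb experiment (adjusted p = 0.000492 and 4.12e-05).

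Nt5e (CD73), the surface enzyme that turns AMP into adenosine and a marker of Tregs, was called lower in unstimulated cells of both knockouts. It read 10.63, 10.55 and 10.80 in unstimulated WT and 10.01, 9.87 and 9.98 in unstimulated Rheb KO, a difference of -0.71 ± 0.10 (adjusted p = 0.00693). Stimulated Rheb KO arrays were also below WT without passing the test (-0.32 ± 0.10; adjusted p = 0.242). In the Rag experiment it read 10.38 and 10.01 in unstimulated WT, 8.28 and 8.50 in unstimulated KO, 10.47 and 10.32 in stimulated WT and 8.93 and 8.76 in stimulated KO. The Rag KO arrays lay below all WT arrays, by -1.80 ± 0.24 and -1.56 ± 0.24 (adjusted p = 0.0139 and 0.0287). The Rag effect minus the Rheb effect on Nt5e was -1.23 ± 0.21 in stimulated cells (adjusted p = 0.00894). In unstimulated cells it was -1.09 and was not called.

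Xdh, which oxidises hypoxanthine and xanthine to urate, was lower in Rheb KO in both states. It read 9.65, 9.12 and 9.36 in unstimulated WT, 7.85, 7.84 and 8.65 in unstimulated KO, 9.22, 9.42 and 9.08 in stimulated WT and 7.76, 7.14 and 7.71 in stimulated KO. No KO array reached the WT range, and the differences were -1.26 ± 0.22 and -1.70 ± 0.22 (adjusted p = 0.0315 and 0.0057). Xdh was not called in Rag KO in either state, and its responses to stimulation differed between Rag KO and WT by 1.73 ± 0.59 (limma adjusted p = 0.728). Adssl1, a muscle form of adenylosuccinate synthase, was higher in unstimulated Rheb KO (0.61 ± 0.11; adjusted p = 0.0399). It was not called in stimulated Rheb KO, and its Rheb interaction was -0.42 ± 0.16 (limma adjusted p = 0.741).

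**Figure D4:**
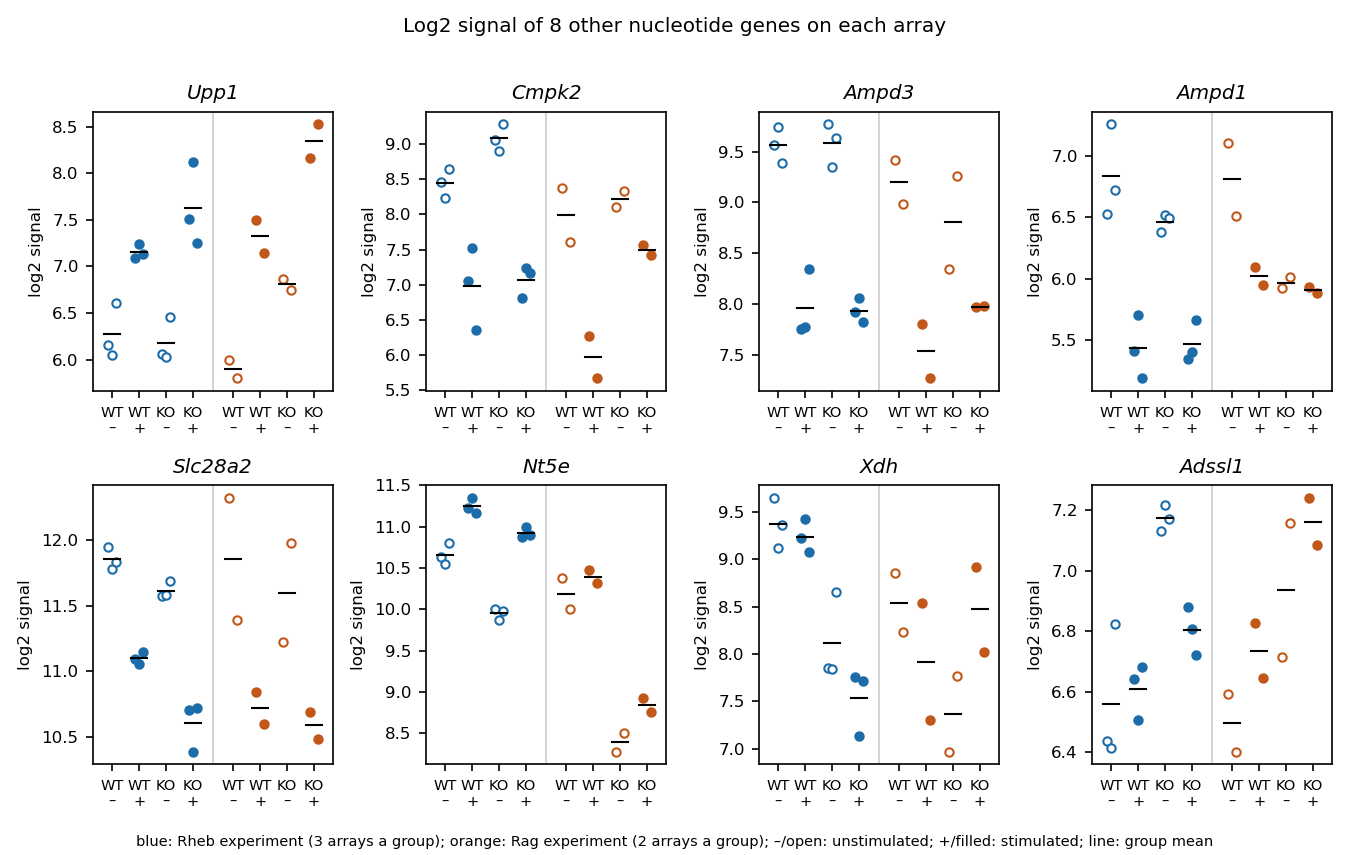
Log2 signal (vertical axis, a separate scale for each gene) of 8 other genes of nucleotide metabolism on each array of the 8 groups, with horizontal lines at group means; colours and symbols are as in the plot of 8 members. Upp1 is higher on all stimulated arrays than on unstimulated arrays of the same group pair, and Nt5e and Xdh are lower in unstimulated Rheb KO than in WT.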

How the data were processed

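Values are log2 gene-level signals that the authors made by RMA with Affymetrix Expression Console 1.1, per the submitters' processing notes. Total RNA of sorted cells had been made into biotinylated cDNA, per the labels. The sources used do not say if the Rheb and Rag arrays went through RMA jointly. Of 28846 probe sets, 19572 carried 1 gene, and 55 genes had several probe sets. The genes' symbols come from the platform annotation. No value was rescaled. Group means were fitted with limma 3.58.1 (R 4.3.3), separately for each experiment and over all 8 groups for differences between experiments, with two-sided tests and Benjamini-Hochberg adjustment. The fit was tested on simulated data. Array numbers, 3 or 2 a group, limit the precision. Nothing in the labels ties arrays to separate mice, so the p-values reflect the spread among these samples alone, which may be technical. Members, gene lists and tests were chosen with earlier results of these data known. Every array is printed for members called in at least 1 of the 13 comparisons and for Tyms, Rrm2, Tk1, Cad and Mthfd2, and in the Rheb experiment for Impdh1, chosen after its values were seen; other members are given by changes and ranges; other pathway genes are named when called, at most 5 a comparison by size. Promoters, from the RefSeq table (GRCm38.p6), are printed for the members called in the most comparisons. Alternatives were another quantile normalization, centring on array medians, leaving out the lowest 40% of genes, a trended and robust prior, only the compared groups, all 20 arrays, the mean of probe sets, the replicate number as a block, and arrays left out. Leaving out the 2 Rag arrays of lowest median was chosen after seeing the data.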

Additional observations from a re-analysis of the deposited data

How the results depend on the processing

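Counts of called members, out of 31, depended on settings as follows; the cause was not tested unless named. Of 8419 recomputed member results 381 changed sign, all of them uncalled in both fits, and 0 changed sign while called. Few member results were called, so a change of sign while called could seldom arise. For stimulation in the Rheb experiment, the count in WT (3) became 1 with all 20 arrays in 1 fit, and in KO (1) it became 2 after a second quantile normalization, 3 without the lowest 40% of genes, 2 with a trended and robust prior, 2 with only the compared groups and 0 with all 20 arrays. For stimulation in WT of the Rag experiment, the count (1) became 5 after a second quantile normalization, 2 with array medians set to 0, 3 without the lowest 40% of genes, 5 with the trended prior, 6 with only the compared groups, 10 with all 20 arrays, 6 without both KO arrays numbered 2 and 3 without the 2 arrays of lowest median. In Rag KO (1) it became 3 without the lowest 40% of genes, 3 with the trended prior, 0 with only the compared groups, 7 with all 20 arrays, 2 without both KO arrays numbered 2 and 0 without the 2 arrays of lowest median. Among comparisons with no call, Rheb KO against WT had 1 in each state with the trended prior, unstimulated Rag KO against WT had 1 with all 20 arrays and 1 without both KO arrays numbered 2, and the differences between experiments had 4 (unstimulated effect), 1 (stimulated effect) and 1 (WT response) without both of those arrays. Leaving out 1 array at a time gave 0 to 1 for unstimulated Rheb KO (1 without WT unstimulated 2), 3 to 5 and 1 to 3 for stimulation in WT and KO of the Rheb experiment (5 and 3 without WT unstimulated 3, and 2 in KO without WT unstimulated 1), 0 to 1 for unstimulated Rag KO (1 without KO unstimulated 2), 0 to 5 and 0 to 8 for stimulation in WT and KO of the Rag experiment (in WT 0 without WT unstimulated 2 or either stimulated WT array, 4 without WT unstimulated 1 and 5 without either unstimulated KO array; in KO 8 without KO unstimulated 2 and 0 without any other array), 0 to 2 for the unstimulated difference between effects (2 without Rag KO unstimulated 2) and 0 to 5 for the WT responses (5 without Rag WT unstimulated 1). The member median of the Rag interaction ranged from -0.387 to 0.0544 over the same omissions, and was -0.23 with all arrays; it was above 0 without WT unstimulated 2, KO unstimulated 2 or KO stimulated 1.

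With the replicate block, stimulation called 2 members in WT and 2 in KO of the Rag experiment in place of 1 each, and the other counts did not change. Deviations of same-numbered arrays correlated by -0.200 to 0.178 in the Rheb experiment, with 2 of 18 pairs over 0.1, and by -0.428 to 0.231 in the Rag experiment, with 6 of 12 over 0.1 (2 of 12 for unlike numbers). With 2 arrays a group the deviations mirror each other. The numbers were not taken to pair the samples, since not every pair exceeded 0.1.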
